A study of Rattus norvegicus with 12 samples.

Results

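The comparison described here is that of affected with wild type kidney in female (XX) rats of the PKD/Mhm line, chosen by the genotype and sex labels. It took 6 arrays of the 12 measured, 3 of wild type females and 3 of heterozygous affected females. Every rat was 36 days old, and the wild type rats were littermates of the affected ones. The arrays, 1 to each left kidney, measured total RNA, and each array of a group is labelled as a biological replicate. The 6 arrays of the males, 3 wild type and 3 heterozygous affected, were used for the shared estimate of spread and for a comparison of the genotype effect between the sexes.

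Heterozygous rats of this line develop a dominant cystic kidney disease in which fluid-filled cysts form from the tubule wall, above all in the proximal tubule. The line carries a missense change in Anks6, a protein of the primary cilium, and males are known to be more severely affected than females. In cystic kidneys the epithelium of the tubule is known to switch on proteins of injury and repair, such as osteopontin and clusterin, while matrix is laid down and macrophages gather around the cysts. RNA of a whole kidney mixes all of these cells with vessels and blood, so that fewer cells of a type and less RNA per cell cannot be told apart here.

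Values are signals per probe set on a log2 scale, and a change is the affected mean minus the wild type mean on that scale, given with its standard error (SE) from limma. A change of 1 is thus a doubling of the signal. A probe set was called where limma's moderated test gave a Benjamini-Hochberg adjusted p under 0.05 over 15866 probe sets. Xist, the RNA that coats the inactive X chromosome, lay between 9.06 and 9.84 on the 6 female arrays and between 5.97 and 6.03 on the 6 male arrays. Anks6 itself was not analysed here, as the annotation used does not name it, and no other gene checks the genotype labels. Markers of the tubule were high on all 6 female arrays, with the phosphate transporter Slc34a1 at 12.68 to 13.06, uromodulin (Umod) at 12.99 to 13.25 and the water channel Aqp2 at 11.51 to 12.06. The podocyte gene Nphs1, the adrenal gene Cyp11b1 and the leukocyte genes Ptprc and Cd3e were close to the floor, at 5.52 to 6.04. Other podocyte and leukocyte genes read higher, with Synpo at 7.76 to 8.01, Cd68 at 6.21 to 6.42 and Fcer1g at 8.04 to 8.69.

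Few genes were called as different between affected and wild type females, and most changes were small. Limma called 10 probe sets, 0.063% of those tested, 9 higher and 1 lower in affected females. The genes that rose encode clusterin (Clu), osteopontin (Spp1), ceruloplasmin (Cp), the common Fc receptor gamma chain (Fcer1g), perilipin 2 (Plin2) and vitamin K epoxide reductase (Vkorc1). The gene that fell, Gnpnat1, encodes an acetyltransferase of amino sugar synthesis. The other 3 calls belong to probe sets that the annotation assigns to several genes, and they are given by probe set.

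The stretches before the start sites of called genes are printed to show what sequence lies ahead of the genes that rose and of the one that fell. RefSeq's table for build GRCr8 held windows for 5 of the 7 genes, and each line below gives the 250 bases before the start site of 1 gene, 5′ to 3′ on its own strand. They are Spp1 at chr14:5619805-5620054 (minus strand), Cp at chr2:104368420-104368669 (plus strand), Vkorc1 at chr1:191935491-191935740 (minus strand) and Gnpnat1 at chr15:21084436-21084685 (minus strand). Capitals mark matches to the AP-1 letters TGANTCA, the STAT letters TTCNNNGAA, the CCAAT box CCAAT or the TATA letters TATAAA, each searched on both strands.
Spp1: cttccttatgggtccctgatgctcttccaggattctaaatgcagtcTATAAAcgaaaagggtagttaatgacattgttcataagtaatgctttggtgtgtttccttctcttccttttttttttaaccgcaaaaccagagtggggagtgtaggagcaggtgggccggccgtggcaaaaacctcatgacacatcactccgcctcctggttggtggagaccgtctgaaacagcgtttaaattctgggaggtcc
Cp: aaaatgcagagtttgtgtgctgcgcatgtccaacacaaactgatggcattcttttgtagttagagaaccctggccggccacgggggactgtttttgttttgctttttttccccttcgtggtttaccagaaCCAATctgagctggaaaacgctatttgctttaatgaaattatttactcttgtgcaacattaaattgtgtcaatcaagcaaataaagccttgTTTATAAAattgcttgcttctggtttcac
Vkorc1: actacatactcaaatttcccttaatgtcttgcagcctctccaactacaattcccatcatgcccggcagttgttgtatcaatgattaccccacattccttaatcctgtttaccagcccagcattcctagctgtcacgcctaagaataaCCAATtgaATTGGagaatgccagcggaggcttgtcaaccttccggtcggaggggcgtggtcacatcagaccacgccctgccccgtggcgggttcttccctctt
Gnpnat1: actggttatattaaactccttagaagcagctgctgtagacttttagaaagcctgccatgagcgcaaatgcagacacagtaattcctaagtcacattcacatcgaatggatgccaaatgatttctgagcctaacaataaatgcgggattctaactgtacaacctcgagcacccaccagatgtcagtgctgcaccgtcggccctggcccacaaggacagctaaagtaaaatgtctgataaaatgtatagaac

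The AP-1 and STAT letters were in 0 of the 6 windows of called genes, of which Plin2 has a pair. They occur in 6.34% and 7.67% of the 33469 windows of 250 bases in the table. The TATA letters were in 2 windows, at 204 bases before the start of Spp1 and at 27 and 29 bases before that of Cp, where matches on both strands overlap. Of all windows 12.9% hold these letters. The CCAAT letters were in 2 windows, 120 bases before the start of Cp and 103 and 95 bases before that of Vkorc1, and in 34% of all windows. The windows of Gnpnat1 and Plin2 held no match. Such a match is a description of the letters, with no site shown to be bound.

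Clusterin, a secreted chaperone made by injured tubule cells, had the largest change. Its signals were 7.55, 7.87 and 7.63 in wild type and 9.75, 10.20 and 10.94 in affected females. All affected females thus lay above all wild type females, and the affected females were spread more widely. Clu rose by 2.61 (SE 0.31), or 6.09-fold (limma adjusted p = 0.0292). A second probe set of Clu stood at the floor of the scale on all arrays, at 5.91 to 6.02, with a change of 0.01.

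Osteopontin, a secreted phosphoprotein of the tubule that binds integrins and calcium, was already abundant in wild type females. Spp1 had signals of 10.96, 11.17 and 11.28 in wild type and 12.48, 12.92 and 13.06 in affected females. It rose by 1.69 (SE 0.17), or 3.22-fold (limma adjusted p = 0.0281). The groups were apart, and its lowest affected female was replicate 1.

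Ceruloplasmin, a copper-carrying ferroxidase of plasma, rose by nearly the same amount in every affected female. Cp had signals of 7.66, 7.55 and 7.48 in wild type and 8.49, 8.50 and 8.52 in affected females. The change was 0.94 (SE 0.11), or 1.92-fold (limma adjusted p = 0.0292). Its other probe sets had changes of 0.54 and 0.21 with the groups apart, and neither passed (limma adjusted p = 0.204 and 0.466).

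The remaining named calls were smaller and rested on tight groups. Fcer1g, a signalling subunit of Fc receptors on macrophages and other myeloid cells, had signals of 8.06, 8.04 and 8.05 in wild type and 8.69, 8.44 and 8.64 in affected females. It rose by 0.54 (SE 0.07), or 1.45-fold. Plin2, which coats lipid droplets, had signals of 8.53, 8.47 and 8.62 against 8.86, 8.94 and 8.86, a rise of 0.35 (SE 0.04). Vkorc1, which regenerates vitamin K for the carboxylation of proteins such as matrix Gla protein, had signals of 9.64, 9.62 and 9.69 against 9.93, 9.84 and 9.86, a rise of 0.23 (SE 0.03). For these 3 genes limma's adjusted p was 0.0292 and the groups did not overlap. A second probe set of Plin2 lay at the floor of the scale with a change of 0.01.

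Gnpnat1 was the only probe set called lower. The enzyme makes N-acetylglucosamine 6-phosphate on the way to the sugar donor of glycoproteins. Its signals were 8.31, 8.29 and 8.38 in wild type and 8.12, 8.14 and 8.04 in affected females, again with no overlap. The fall was by 0.23 on the log2 scale (SE 0.03), or 1.17-fold lower (limma adjusted p = 0.0483). This call depended on the fit, as it held in 2 of 7 other settings and in 0 of 12 fits without 1 array.

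Among the probe sets assigned to several genes, 1370892_at had signals of 7.64, 7.40 and 7.64 in wild type and 9.25, 10.14 and 10.33 in affected females. Its rise of 2.34 (SE 0.26), 5.08-fold, stood next to that of Clu in size. Signals of 8.25, 8.38 and 8.31 against 9.43, 9.15 and 9.45 were found for 1388557_at, a rise of 1.03 (SE 0.14). The other one, 1367683_at, had 7.16, 7.07 and 7.13 against 7.38, 7.32 and 7.36, a rise of 0.23 (SE 0.03). No gene is named for them.

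**Figure D1:**
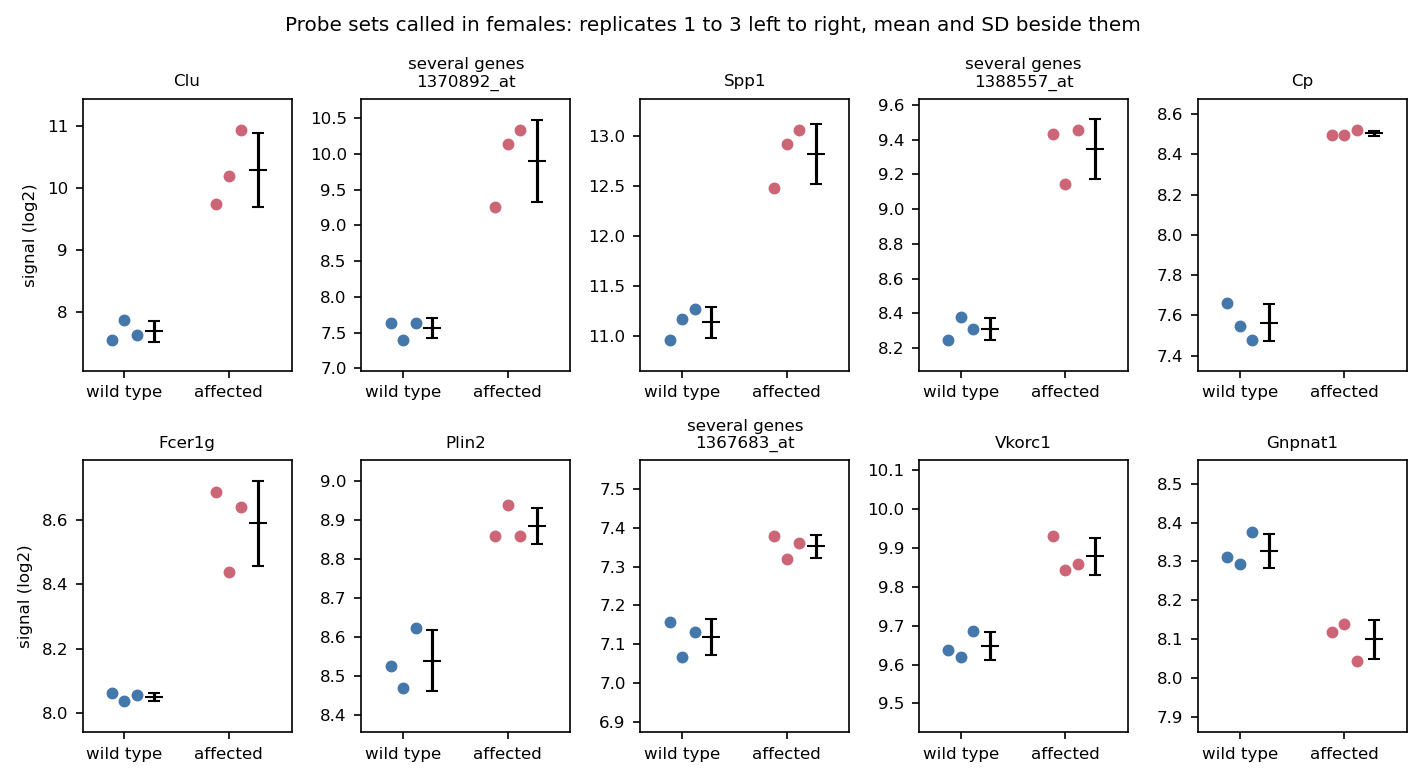
Log2 signals of the 10 called probe sets in wild type and affected females, 1 panel each with its own axis range, replicates 1 to 3 from left to right and the mean with the SD (n = 3) beside them. The affected females lie above the wild type females in 9 panels and below them in that of Gnpnat1, and the difference of the means runs in size from 0.23 to 2.61.

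The adjusted p of these calls ran from 0.0281 to 0.0483. Just outside the threshold, with adjusted p from 0.0518 to 0.0918, lay 7 probe sets, all with the affected females above the wild type females. They were Taf10, a subunit of the general transcription factor TFIID, with a value of 0.32, and Cd74, the chaperone of class II molecules, with 0.44. Cxcl16, a chemokine of epithelium and macrophages, had 0.70, Tmem176b 0.63, Fads1, a fatty acid desaturase, 0.38, Fkbp1a, the binding protein of FK506, 0.31 and Spsb1 0.23. Cp alone was called when the 6 female arrays were fitted by themselves. No probe set was called without affected female replicate 3, wild type female replicate 3 or wild type male replicate 1. With the replicate number of the females as a block, 0 were called (lowest limma adjusted p = 0.195).

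Sizes across all probe sets give the scale of the genotype effect in females. The median absolute change was 0.0273, and 98% of the changes lay between -0.24 and 0.30. Of the 15866 probe sets 37 were at least 0.5 higher and 14 at least 0.5 lower in affected females, and 4 were at least 1 higher and 0 at least 1 lower. In males the same limits were passed by 206 and 51 probe sets, and by 37 and 1. The groups did not overlap in 43 of the 51 probe sets that differed by 0.5 or more in females, against 14.7% of all probe sets, 7.49% with the affected females higher and 7.19% with them lower.

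The spread between rats sets what could be called at these sizes. Among the 4492 probe sets with a mean signal above 7, the median SD within a group (n = 3) was 0.080 in wild type and 0.095 in affected females, and the median SE of a change was 0.079. For the 51 probe sets that differed by 0.5 or more, the median SE was 0.18, and 45 of them were not called. The SE of the called probe sets ran from 0.027 for Vkorc1 to 0.31 for Clu. An unadjusted p under 0.05 was found for 769 probe sets on the higher side (4.85%) and 624 on the lower side (3.93%). Signals under 6, at the floor of the scale, made up 34% of the table, and there changes are compressed.

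**Figure D2:**
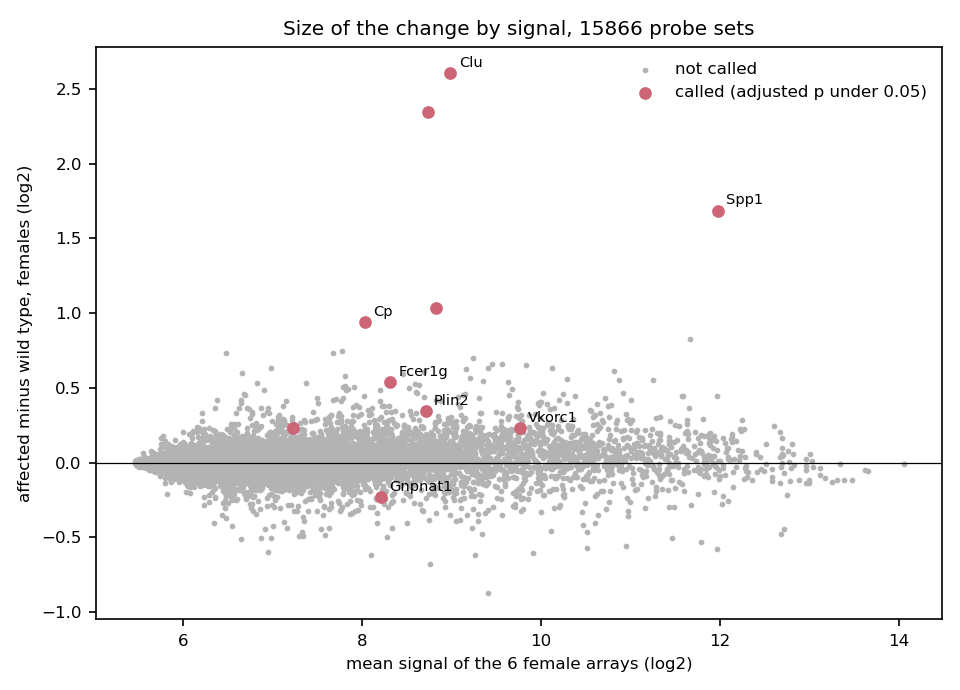
Change in affected females (log2, vertical axis) against the mean signal of the 6 female arrays (log2, horizontal axis) for 15866 probe sets, called ones in red. The changes narrow to the left, where signals reach the floor of the scale, and the 4 probe sets at 1 or more stand apart from the rest.

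Most of the largest differences missed the threshold. Those named here were taken as the 10 largest on each side among probe sets of 1 gene with groups apart, an unadjusted p under 0.05 and a mean signal above 7 in the higher group, from 378 candidates on the higher and 103 on the lower side. Clu, Spp1 and Cp led the higher side. Matrix Gla protein (Mgp), a vitamin K-dependent inhibitor of calcification, followed with signals of 11.38, 11.23 and 11.16 in wild type and 11.86, 12.10 and 12.30 in affected females, a value of 0.83 (SE 0.13, limma adjusted p = 0.101). The smooth muscle protein transgelin (Tagln) had a value of 0.74 with a wide SE of 0.30. Decorin (Dcn), a small proteoglycan that binds collagen, had signals of 9.05, 9.11 and 9.21 against 9.88, 9.54 and 9.92, a value of 0.66 (SE 0.15). Fibronectin (Fn1) had 0.65 (SE 0.26), the class II gene RT1-Db1 0.66 (SE 0.13), Cxcl16 0.70 (SE 0.11) and carboxypeptidase E (Cpe) 0.64 (SE 0.15). Affected female replicate 3 was the highest affected female for 9 of these 10 probe sets and for 5 of the 9 that were called higher, and the lowest in 0 of either.

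None of the 10 on the lower side was called. The anion exchanger Slc4a1, of red cells and of acid-secreting cells of the collecting duct, had signals of 8.96, 9.56 and 8.78 in wild type and 8.61, 8.53 and 8.14 in affected females, a value of -0.68 (SE 0.27, limma adjusted p = 0.527). Its second probe set had -0.50 (SE 0.28) with overlapping groups. A probe set that the annotation gives to the beta globin gene Hbb, and that other globin genes may share, had a value of -0.55 (SE 0.18). Xist had signals of 9.32, 9.58 and 9.84 against 9.06, 9.10 and 9.15, a value of -0.48 (SE 0.10, limma adjusted p = 0.183), and the groups were apart. In the fit without wild type female replicate 1 this value was -0.61 and passed (limma adjusted p = 0.0497).

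Of the other differences below 0, Mtarc1, an amidoxime reductase of mitochondria, had a value of -0.48, although its second probe set had -0.04 with overlapping groups. The monocarboxylate transporter Slc16a7 had -0.44, the polycomb-associated Phf1 -0.40 and the secreted Wnt antagonist Sfrp2 -0.39. RNA-binding proteins were also present, the helicase Ddx5 with -0.40 and the splicing factor Rbm39 with -0.38 and -0.35 on 2 probe sets. Further probe sets of Rbm39 had -0.31 and -0.08, with overlapping groups.

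**Figure D3:**
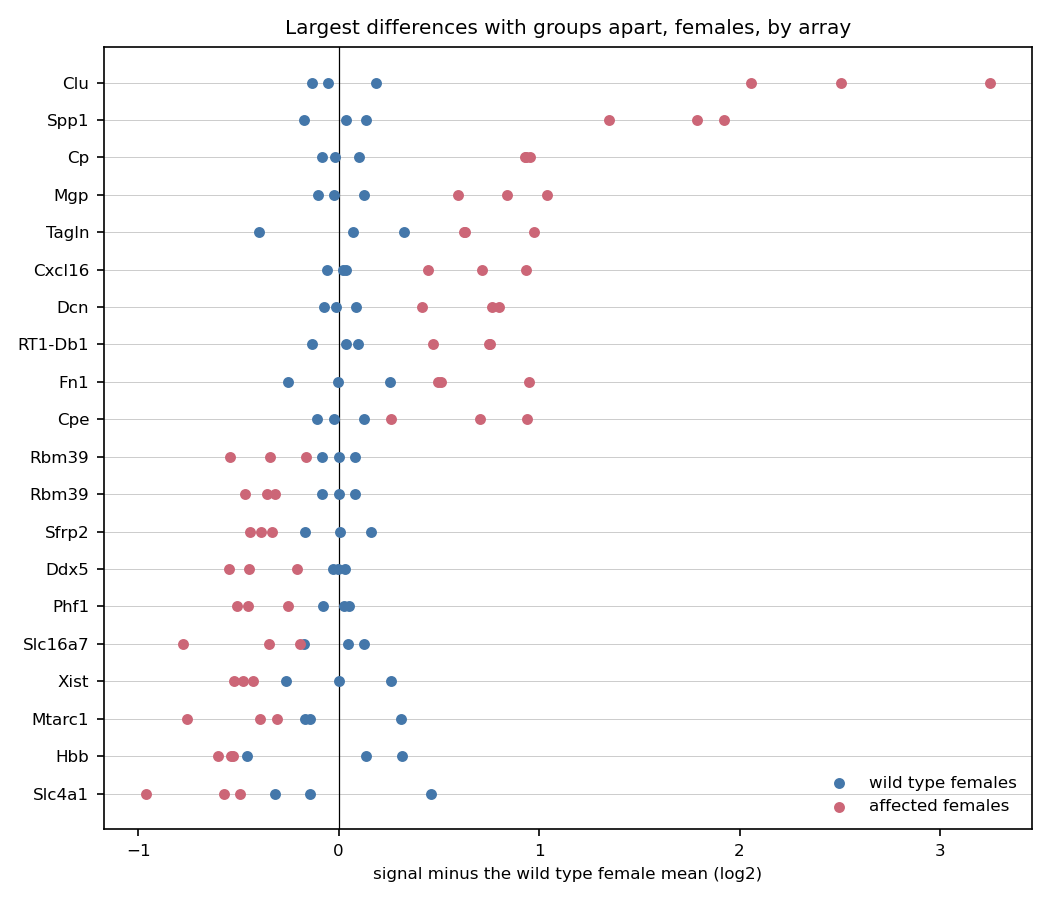
Signal minus the mean of the wild type females (log2, horizontal axis) on each of the 6 female arrays, 1 point an array, for the 20 probe sets of 1 gene with the largest differences, 10 on each side, and groups apart. The affected females of Clu and Spp1 lie far to the right of the rest, those of the lower 10 lie below 0, and for Hbb and Slc16a7 the groups almost touch.

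Genes of related function were then described as lists, each gene by its probe set of highest signal. For all 10411 named genes the median change was -0.00, 5.96% were higher and 3.81% lower at an unadjusted p under 0.05, 0.0672% were called, and 8.77% had the affected females apart on the higher side and 6.53% on the lower side. The counts below are of unadjusted p under 0.05 unless called is written, and they describe the lists without a test. The lists were chosen with earlier results of these data known, so a call that falls in a list is no support for its theme.

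Injury and dedifferentiation genes of the tubule had the highest median of the 27 lists. Of 40 measured genes 3 were called, Spp1, Clu and Cp, and 16 were higher and 0 lower, at a median of 0.15, with 36 of 40 above 0, against 48% of all named genes. The medians of the single affected females were 0.10, 0.10 and 0.26 above wild type, the last being replicate 3. The calcium-binding proteins S100a11 and S100a10 had values of 0.55 and 0.46, the intermediate filament proteins vimentin (Vim) 0.63 and keratin 8 (Krt8) 0.45, and annexin A2 (Anxa2) 0.42, all with groups apart and adjusted p from 0.286 to 0.37. The proximal tubule injury marker Havcr1, named after its values were seen, had signals of 6.20, 6.003 and 6.13 against 6.45, 6.91 and 7.17. Its value of 0.73 had an SE of 0.42 (limma adjusted p = 0.683). The neutrophil gelatinase-associated lipocalin Lcn2 had 6.20, 6.17 and 6.14 against 6.29, 6.55 and 6.78, a value of 0.37 (limma adjusted p = 0.639). The groups were apart for both genes, close to the floor of the scale. Without affected female replicate 3, 12 of the 40 genes were higher.

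Matrix genes came next, with 0 of 58 called, 16 higher and 3 lower, at a median of 0.12. Beside Mgp and Dcn, the basement membrane proteins nidogen 1 (Nid1) and collagen IV (Col4a1) each had 0.39, the collagen chaperone Serpinh1 0.41, the membrane protease Mmp14 0.42 and the protease inhibitor Timp1 0.46. Collagen III (Col3a1) had signals of 10.55, 10.36 and 10.63 in wild type and 11.03, 11.04 and 11.30 in affected females, a value of 0.61 (SE 0.19). The gelatinase Mmp9 went the other way, with 6.54, 6.72 and 6.60 against 6.30, 6.28 and 6.36, a value of -0.31 (limma adjusted p = 0.171). Markers of fibroblasts and smooth muscle had 3 of 22 higher, namely Tpm1 (0.51), Vim and Tagln, and 0 lower, at a median of 0.03. The summed linear signal of these 22 markers was 3441 to 3681 in wild type and 3902 to 4735 in affected females, and 3021 to 3184 against 3242 to 3899 without Vim, which made up 41.8% of the difference of the means. Of the markers, Actg2, Cnn1 and Lmod1 lay under 6 on all 6 arrays. The part of these cell type markers in the matrix values was not tested. Without affected female replicate 3, 10 of the 58 matrix genes were higher.

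Of the leukocyte genes 29 of 44 lay above 0, and of the antigen presentation genes 32 of 42, against 48% of all named genes. Of 44 leukocyte genes 1 was called (Fcer1g), 14 were higher and 0 lower, at a median of 0.04. Lysozyme (Lyz2) had signals of 10.88, 10.87 and 10.67 against 11.13, 11.16 and 11.38, a value of 0.42 (SE 0.09), and Arpc1b, of the actin-branching complex, also had 0.42. The complement gene C1qc had 0.37 and the macrophage marker Cd68 0.14. The summed linear signal of the 44 markers was 5980 to 6443 in wild type and 7216 to 7685 in affected females, with no overlap. Lyz2 made up 51.1% of the difference of the means, and without it the sums were 4300 to 4565 and 4936 to 5029. T cell, B cell and neutrophil markers such as Cd3e, Cd8a, Cd79b and S100a8 were among the 12 that lay under 6 on every array. So were Ptprc, a gene of leukocytes in general, and Fcgr2b, Ncf1 and Vav1, which are not particular to those cells. Without affected female replicate 3, 9 of the 44 genes were higher.

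Of 42 antigen presentation and interferon genes 0 were called, 19 were higher and 0 lower, at a median of 0.08. The class II molecules and their invariant chain led this list. Cd74 had signals of 11.47, 11.29 and 11.31 in wild type and 11.71, 11.83 and 11.86 in affected females, a value of 0.44 (SE 0.06, limma adjusted p = 0.065). RT1-Da had 10.80, 10.54 and 10.44 against 11.11, 11.11 and 11.23, a value of 0.55 (SE 0.10). RT1-Db1 had 0.66, RT1-Bb 0.56 and RT1-Ba 0.47, so that 4 class II chains shared the direction with groups apart. These genes are close copies, and probe sets may read more than 1 of them. Without affected female replicate 3, 15 of the 42 genes were higher. How much of these values goes with the leukocyte markers was not tested.

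Complement and chemokine lists held single genes of larger value in a group near 0. Of 36 complement and coagulation genes 6 were higher and 0 lower at a median of 0.03, led by the C1 inhibitor Serping1 with 0.61 (SE 0.17). Of 47 chemokine and cytokine genes 5 were higher and 1 lower at a median of 0.02. Here Cxcl16 had signals of 8.93, 8.83 and 8.91 in wild type and 9.83, 9.33 and 9.60 in affected females. The adhesion molecule Icam1 had a value of 0.20, Stat3 0.28 and the cytokine Il15 -0.14.

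Of 44 cell cycle genes 37 lay above 0, and 6 were higher and 1 lower at a median of 0.04, with the kinase subunit Cks2 at 0.19, topoisomerase Top2a at 0.18, tubulin Tubb5 at 0.49 and cyclin D1 (Ccnd1) at 0.28. Cks2 and Top2a lay between 5.89 and 6.20 on all arrays, near the floor. Of 41 immediate early and stress genes 4 were higher and 1 lower at a median of 0.00. The endoplasmic reticulum chaperone Hspa5 had 9.53, 9.53 and 9.56 in wild type and 9.998, 9.95 and 9.88 in affected females, a value of 0.40 (SE 0.08, limma adjusted p = 0.171).

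The list of amino sugar, glycan and secretory pathway enzymes held a call on each side. Of 37 genes of amino sugar, glycan and protein secretion Vkorc1 rose and Gnpnat1 fell, while 9 were higher and 2 lower at an unadjusted p, at a median of 0.12. The 9 higher genes were Vkorc1, Ddost, Rpn2, Sec61g, Sec61b, Ssr3, Ggcx, Ext1 and Ext2, of which Ext1 and Ext2 encode the polymerases of heparan sulfate chains. The oligosaccharyltransferase subunit Ddost had signals of 9.52, 9.44 and 9.54 in wild type and 9.74, 9.66 and 9.71 in affected females, a value of 0.20 (SE 0.03, limma adjusted p = 0.102). Its partner Rpn2 had 0.24 and the translocon subunit Sec61g 0.24. Ggcx, the carboxylase that works with Vkorc1, had 6.68, 6.63 and 6.62 against 6.81, 6.77 and 6.76, a value of 0.13. Mgp, a substrate of that carboxylase, Ggcx and Vkorc1 all had the affected females apart on the higher side, as had 8.77% of all named genes. These 3 genes were brought together with their values known, so they are no support for a shared theme. Of the 3 genes Vkorc1 passed the test, but it did not pass under quantile normalization (limma adjusted p = 0.275). The median of this list was 0.07 under quantile normalization.

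**Figure D4:**
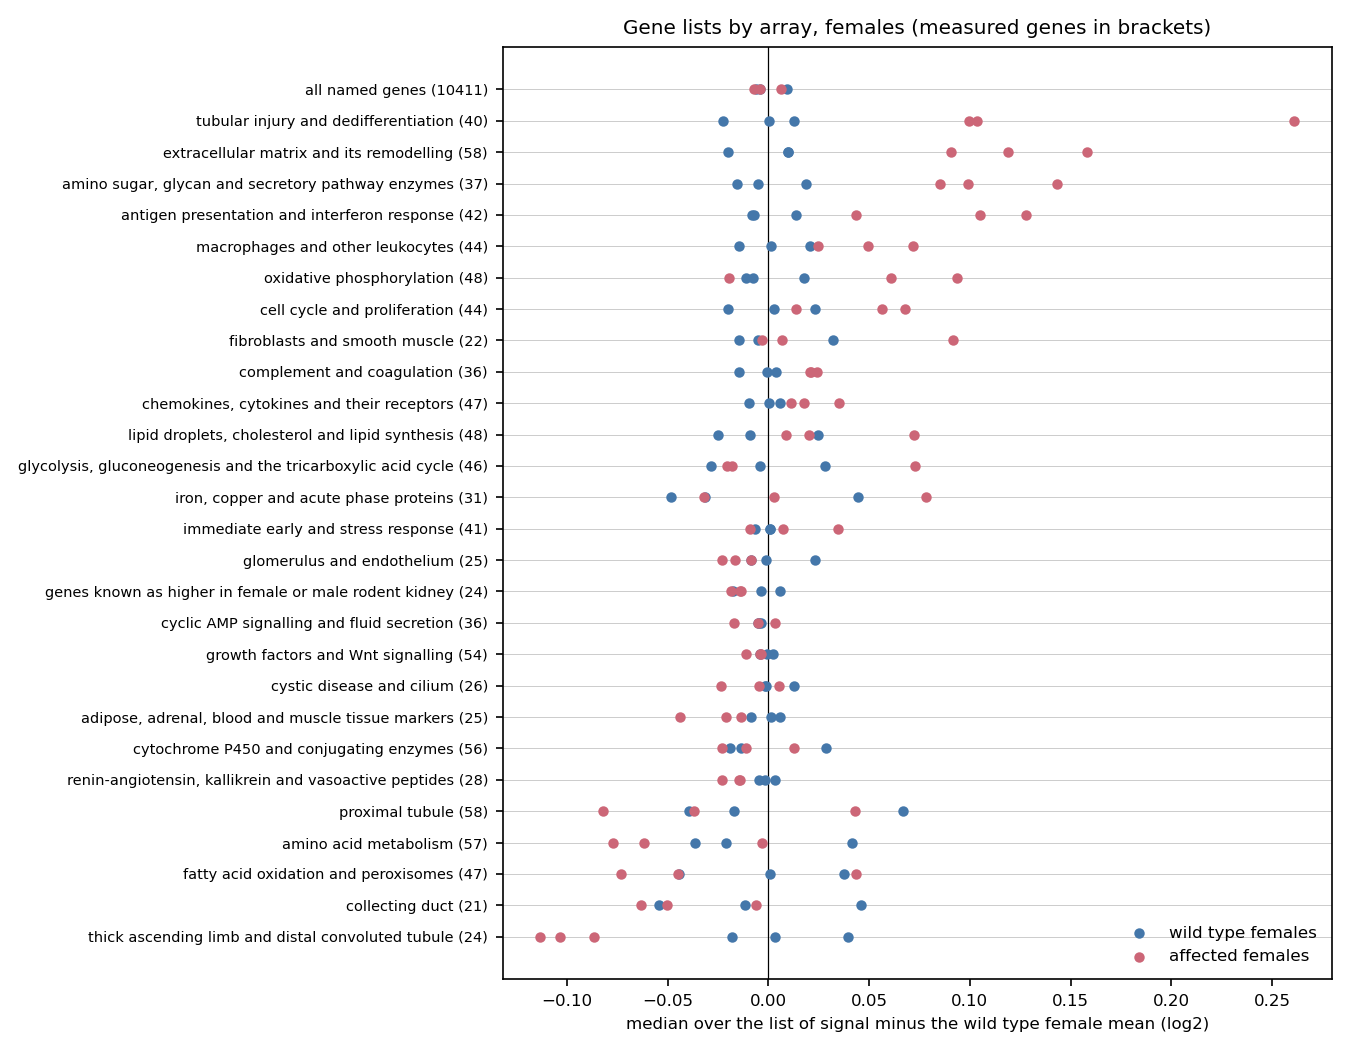
Median over each gene list of the signal minus the wild type female mean (log2, horizontal axis), 1 point for each of the 6 female arrays, lists ordered by their change. The affected females lie at 0.10 to 0.26 for the injury list, at 0.09 to 0.14 for the secretory list and at -0.11 to -0.09 for the thick ascending limb list, while all named genes stay within 0.01 of 0.

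No gene of the nephron's transport segments was called, where 0.0672% of all named genes were. Of 24 genes of the distal nephron (thick ascending limb and distal convoluted tubule) 6 lay above 0, 1 was higher and 5 were lower, at a median of -0.07. The list's median on the single affected arrays was -0.09, -0.10 and -0.11. The potassium channel Kcnj1 had signals of 9.42, 9.56 and 9.67 in wild type and 9.33, 9.26 and 9.05 in affected females, a value of -0.34 (SE 0.13). The thiazide-sensitive transporter Slc12a3 had -0.57 (SE 0.20) with overlapping groups, and the calcium-sensing receptor Casr had -0.21. Kcnj10 (-0.09) and Atp1b1 (-0.13), with groups apart, had a smaller unadjusted p than Kcnj1, Slc12a3 and Casr. The tight junction protein Cldn19 went the other way, with 8.35, 8.36 and 8.46 against 8.75, 8.81 and 8.99, a value of 0.46 (SE 0.10, limma adjusted p = 0.214). The summed linear signal of this list was 43105 to 46653 in wild type and 40812 to 41667 in affected females, and 32849 to 36898 against 31842 to 32004 without Atp1b1, the member of largest difference.

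Of 58 proximal tubule genes 24 lay above 0, close to the share of 48% among all named genes, and 1 was higher and 6 were lower, at a median of -0.02. The water channel Aqp1 had 12.20, 12.13 and 12.12 in wild type and 11.95, 11.84 and 11.98 in affected females, a value of -0.22 (SE 0.05, limma adjusted p = 0.2). The amino acid transporter Slc6a18 had -0.29 and the inositol oxygenase Miox -0.22, while the aspartic protease Napsa had 0.28. Of 21 collecting duct genes 0 were higher and 3 lower at a median of -0.04, with pendrin (Slc26a4) at -0.32 and the urea transporter Slc14a1 at -0.10. Of 25 genes of glomerulus and endothelium 0 were higher and 4 lower at a median of -0.00. They were led by Egfl7, secreted by endothelium, with 8.25, 8.36 and 8.31 against 7.98, 8.15 and 8.07, a value of -0.24. The others, Flt1 (-0.08), Itga8 (-0.06) and Nos3 (-0.05), were close to the floor, at 5.72 to 6.23. The summed linear signals of these lists overlapped between the groups. They were 95521 to 102923 in wild type and 90563 to 100841 in affected females for the proximal tubule. The collecting duct had 8307 to 10869 against 8406 to 10076, and glomerulus and endothelium 7073 to 7277 against 6353 to 7170.

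The cilium, cyclic AMP and growth factor lists, of signalling tied to cyst growth, had medians of -0.01 and few genes on either side. Of all named genes 3.81% were lower and 5.96% higher. Of 26 genes of cystic disease and the cilium 1 was higher and 3 were lower, at a median of -0.01. The lower ones were Iqcb1 (-0.03), Ift172 (-0.04) and Tmem216 (-0.06), small values at signals of 5.77 to 6.87. Vhl, the ubiquitin ligase subunit that degrades hypoxia-inducible factors, had 7.44, 7.60 and 7.56 in wild type and 7.78, 7.73 and 7.81 in affected females, a value of 0.24. Cyclic AMP drives fluid secretion into cysts, and of 36 genes of that pathway 1 was higher and 3 were lower, at a median of -0.01. Adenylyl cyclase 6 (Adcy6), a form found in the collecting duct, had 8.94, 8.84 and 8.77 against 8.41, 8.69 and 8.49, a value of -0.32 (SE 0.09, limma adjusted p = 0.29). The transcription factor Creb1 had 0.12, and cyclooxygenase 2 (Ptgs2) -0.21 at the floor of the scale. Of 54 growth factor and Wnt genes 2 were higher and 4 lower, with Fgf9 at -0.29, Igfbp1 at 0.47 and Sfrp2 at -0.39. Of 28 genes of the renin-angiotensin system and vasoactive peptides 1 was higher and 6 were lower, at a median of -0.02, Ptgs2 among them, and the natriuretic peptide receptors Npr1 and Npr2 had -0.11 each.

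Metabolic lists had medians between -0.04 and 0.04. Above 0 lay 14 of 47 fatty acid oxidation, 17 of 57 amino acid metabolism and 35 of 48 oxidative phosphorylation genes. So did 33 of 48 lipid and 24 of 46 glycolysis genes, against 48% of all named genes. Of 47 genes of fatty acid oxidation 1 was higher and 5 were lower, at a median of -0.04, with the dehydrogenase Acadm at -0.18, Pex11a of the peroxisome at -0.29 and the ligase Acsl1 at -0.24. Of 57 genes of amino acid metabolism 0 passed on either side at the unadjusted threshold. Of 48 lipid genes Plin2 was called, 7 were higher and 3 lower, and Fads1 had 6.99, 6.96 and 6.83 in wild type and 7.30, 7.23 and 7.38 in affected females, a value of 0.38 (SE 0.06). Apolipoprotein E (Apoe) had 0.39 and the elongase Elovl6 -0.12. Oxidative phosphorylation had 5 of 48 higher and 0 lower at a median of 0.04, with the subunits Cox5b at 0.25 and Atp5po at 0.19. The glycolytic enzymes Eno1 and Ldha had 0.21 and 0.29 in a list of 46 with 2 higher and 2 lower. Eno1 passed in the fit without wild type female replicate 2 (limma adjusted p = 0.0248). Iron, copper and acute phase genes had Cp called of 31, and cytochrome P450 and conjugating enzymes had 2 of 56 higher and 2 lower, at a median of -0.02. Of 24 genes known as higher in female or male rodent kidney 1 was higher, the P450 Cyp4b1 with 0.36, and 1 was lower, the anion transporter Slc22a6 with -0.27. Single arrays mattered for several of these smaller counts. Without affected female replicate 3 the higher genes were 3 of the chemokine, 2 of the stress, 3 of the lipid and 3 of the oxidative phosphorylation list. Without wild type female replicate 1 the lower genes were 3 of the thick ascending limb, 3 of the fatty acid oxidation, 3 of the vasoactive and 0 of the cilium list, and 5 of the cyclic AMP list, and the higher genes were 4 of the growth factor and Wnt list. Without either of these arrays 3 proximal tubule genes were higher. The list counts were not recomputed without the other arrays.

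Most probe sets called in males lay on the same side of 0 in females. These comparisons share no array, but same-numbered males and females of a genotype deviated together. In males 5.53% of all probe sets were called. Of the 753 called higher there, 714 (94.8%) lay above 0 in females, against 44.8% of all probe sets. On that side 356 (47.3% of the 753) had an unadjusted p under 0.05 in females, against 4.85% of all. The median change of the 753 was 0.33 in males and 0.13 in females. Of the 125 called lower in males 100 (80%) lay below 0 in females, with medians of -0.28 and -0.07. The median change of all probe sets in females was -0.004. These probe sets were chosen by their values in males, so the medians do not show that the effect was smaller in females. As a description over 15866 probe sets, which share arrays and are not independent, the changes in the sexes had a Pearson r of 0.728.

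The difference of the genotype effect between the sexes was itself tested, and limma called 0 probe sets (lowest adjusted p = 0.452). At an unadjusted p under 0.05 there were 992 (6.25%), 791 with the female effect below the male one (4.99%) and 201 above it (1.27%). For the 10 probe sets called in females the adjusted p of this difference ran from 0.566 to 0.957. The change in males was 4.02 for Clu, 2.51 for Spp1, 1.64 for Cp and 0.85 for Fcer1g, and the change in females was 64.9%, 67.1%, 57.4% and 63.1% of these on the log2 scale. Vkorc1 had 0.27 in males, Plin2 0.21 and Gnpnat1 -0.09, so that the values of Plin2 and Gnpnat1 were larger in females. Of the 10 calls 9 were also called in males, all but Gnpnat1.

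In the 27 lists 0 members were called for the difference between the sexes, and the lists' medians are given without a test. The injury list had a median of 0.36 in males against 0.15 in females, and for 15 of its 40 genes the female effect was below the male one at an unadjusted p under 0.05, against 5.48% of named genes, while 1.52% had it above. Matrix genes had 0.41 against 0.12, with 18 of 58 such genes. Proximal tubule genes had -0.20 against -0.02, amino acid metabolism -0.16 against -0.03 and fatty acid oxidation -0.18 against -0.04. The secretory list had nearly the same median in both, 0.13 and 0.12. The smallest p values of the difference were those of Adh1c, an alcohol dehydrogenase, with 0.04 in females and -0.87 in males, and of the motor protein Myo6 with 0.11 and -0.53 (limma adjusted p = 0.452 each). The collagen genes Col5a2 and Col4a2 followed with 0.12 and 0.15 in females and 0.72 and 0.68 in males (limma adjusted p = 0.528).

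**Figure D5:**
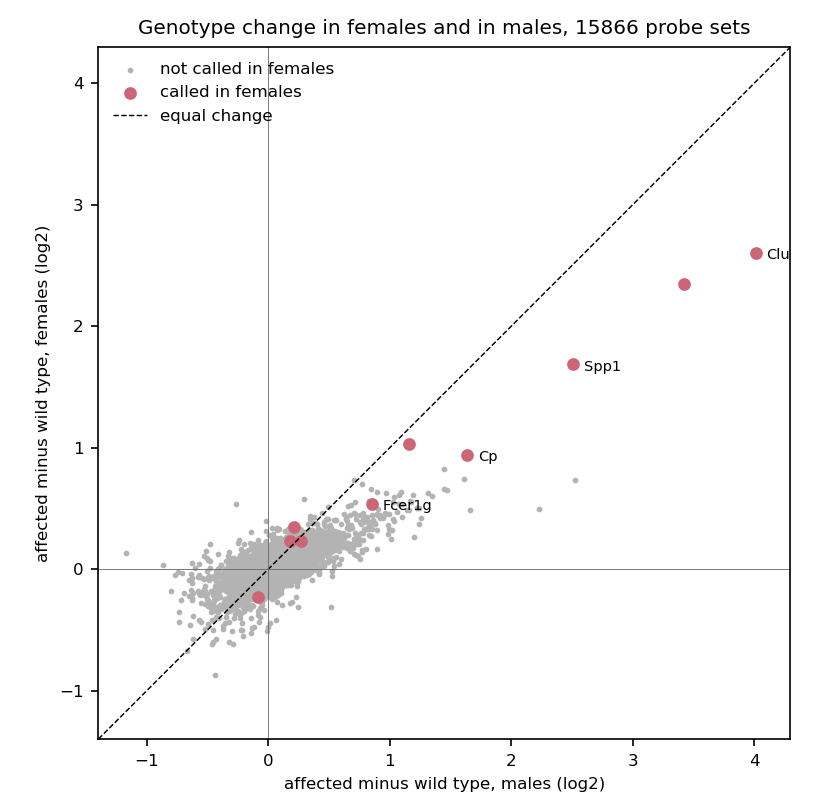
Change with genotype in females (log2, vertical axis) against that in males (log2, horizontal axis) for 15866 probe sets, the 10 called in females in red and equal change as a dashed line. Clu lies farthest out, at 4.02 in males and 2.61 in females.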

How the data were processed

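Total RNA of left kidneys was measured on Affymetrix arrays with biotin-labelled cRNA, per the labels' protocols. The values deposited by the authors are on a log2 scale, 1 signal per probe set and array. The base was taken from the values (5.449 to 14.15), and the summarisation and normalization are not given in the sources used here. Array medians lay between 6.254 and 6.292, so the deposited log2 values were used as given. No arrays were identical. Precision is limited by the small number of arrays, since array signals carry no depth.

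Of 15923 probe sets 57 controls were set aside. Through the platform annotation, 12783 probe sets named 1 gene (12748 matched by Entrez identifier, 35 by symbol), 312 several and 2771 none. Limma 3.58.1 (R 4.3.3) was fitted to all 12 arrays with 1 mean per group (8 residual degrees of freedom, prior 1.63), and its two-sided p-values were adjusted by Benjamini-Hochberg. The fit was tested on simulated data. Genes named are the called ones, the 10 largest differences on each side with groups apart, and members of 27 lists (1235 genes, 1000 measured). Those just outside the threshold and those said to be added are named too. In each list the 3 of smallest p were to be named, but some were left out and other members were named. The members and lists were chosen with earlier results of these data known.

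The 3' minus 5' beta-actin control difference, a sign of RNA quality, was 1.23, 0.89 and 0.82 in wild type and 0.89, 0.79 and 0.98 in affected females. Deviations of same-numbered males and females within a genotype correlated at 0.11 to 0.14 in wild type and 0.38 to 0.52 in affected rats. Those of different number correlated at -0.20 to 0.07 in wild type and -0.43 to -0.08 in affected rats. The numbers were therefore taken to pair the sexes, on weaker values in wild type. With that pairing as a block the difference between the sexes still had 0 calls. The main fit took all arrays as independent, so the shared spread behind the female calls ignores this pairing. The female calls were not tested under it.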

Additional observations from a re-analysis of the deposited data

How the results depend on the processing

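The count of 10 calls in females depended on the processing. It was 1 with the 6 female arrays only, 5 after quantile normalization, 18 without the dimmest 40% of probe sets, 31 with array weights and 17 at an adjusted p under 0.1. Median centring gave 9 and a variance trend 8. Of the 10 calls, 5, 10, 10, 9 and 6 were among those found after quantile normalization, without the dim probe sets, with array weights, after median centring and with the variance trend. Over 7 other settings, the 6 female arrays alone and the replicate block among them, Spp1 held in 5, Vkorc1 and Plin2 in 3 each and Gnpnat1 in 2. In 12 fits without 1 array Spp1 held in 7, Vkorc1 in 3, Plin2 in 2 and Gnpnat1 in 0. Leaving out 1 array at a time gave 0 to 18 calls. Of wild type females, dropping replicates 1, 2 and 3 left 2, 1 and 0 calls, and of affected females 3, 7 and 0. Of wild type males it left 0, 2 and 1, and of affected males 5, 7 and 18. With the replicate number as a block it was 0 (lowest limma adjusted p = 0.195), and 1617 probe sets had an unadjusted p under 0.05. Same-numbered wild type and affected females correlated at 0.36, -0.00 and 0.25 in their deviations, and those of different number at -0.35 to 0.23. Whether the numbers pair them was not settled by these values. The main fit left the females unpaired, and its calls rest on that choice. It also left males and females of a genotype unpaired, and how far the female calls depend on that was not tested. The cause of these shifts was not tested. The difference between the sexes had 0 calls in each setting tried, with 1643 probe sets at an unadjusted p under 0.05 under the block within genotype. No named gene changed its sign. The adjusted p of named genes stayed on its side of the threshold in 1587 of the values recomputed, while a call was lost in 119 and gained in 17. Of the list medians 459 moved by less than the spread between affected females and 54 by more. For the injury list the median was 0.28 without the dim probe sets, and for the antigen presentation list 0.18. Counts of list members without affected female replicate 3 or wild type female replicate 1 were added after seeing the data, as were marker sums without 1 member. With 3 arrays a group and many values at the floor, small changes of weak genes were not detectable.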

Other observations

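The 7 probe sets that the annotation gives to adult alpha or beta globin genes, gathered after their values were seen, were all lower with the groups apart, against 7.19% of all probe sets, with changes from -0.35 to -0.87 and a median of -0.53. They share targets and are not independent of each other, and 0 were called by limma, while all 7 had an unadjusted p under 0.05. The probe set of the lowest value of all, 1371245_a_at, had signals of 10.12, 10.10 and 9.30 in wild type and 9.17, 8.60 and 9.14 in affected females. Wild type female replicate 3 was the lowest of its group in each of the 7. Alas2, the first enzyme of heme synthesis in red cell precursors, had 6.67, 6.59 and 6.53 against 6.48, 6.34 and 6.36, a value of -0.21 (limma adjusted p = 0.276). The platelet genes Pf4 and Ppbp had 0.07, with the affected females apart on the higher side, and 0.01, with overlapping groups. The summed linear signal of 25 marker genes of fat, adrenal, blood and muscle was 6648 to 8227 in wild type and 5841 to 6465 in affected females. Without Hbb it was 4902 to 5476 against 4178 to 4813, and 15 of the 25 lay under 6 on every array. That sum still holds Slc4a1, also a collecting duct gene, and a probe set that the annotation gives to the muscle myosin Myh1. The other muscle markers Acta1, Myh2, Myl1, Ckm, Tnnt3 and Mb lay under 6 on every array. The Myh1 signal is thus not taken as a sign of muscle, and what it reads was not tested. Myh1 had 11.74, 11.74 and 11.61 against 11.57, 11.62 and 11.35, with overlapping groups.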
